A study of Mus musculus with 6 samples.

Results

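Macrophages, dendritic cells and the MHC class II pathway were followed through 39 marker genes in mouse skin. The genes were taken by gene symbol from a series that compares wild-type (WT) skin with skin of mice carrying the LynDN transgene, which the series title writes as LynDeltaN. Of the 39 genes, 37 were measured, among 18617 named genes in all: 24 macrophage and monocyte genes, and 13 dendritic cell and MHC class II genes. Csf1r and Fcer1g were not analysed here.

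Skin RNA of 3 WT and 3 LynDN mice was hybridised to 2-colour arrays, and each of 3 mouse pairs was measured on 2 arrays with the dyes exchanged. Pair 1 joined LynDN mouse 1 with WT mouse 1, pair 2 joined LynDN mouse 2 with WT mouse 3, and pair 3 joined LynDN mouse 3 with WT mouse 2. Lyn is a Src family tyrosine kinase. The labels give no age, strain, treatment or promoter of the transgene. Values are log2 ratios of one mouse of a pair over the other, so no level in either mouse can be read from them, and the presence of skin markers in a sample could not be checked.

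Macrophages are resident phagocytes that clear dying cells and microbes through lysosomal enzymes, scavenger receptors and Fc receptors. Dendritic cells, with Langerhans cells as their counterpart in the epidermis, carry antigen to lymph nodes. They show it to T cells on MHC class II molecules, which are loaded with the help of the invariant chain Cd74 and the H2-DM proteins. Both cell types belong to the myeloid lineage and are found in normal and inflamed skin.

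Signs are given as deposited, because the sources used here do not state which mouse is the numerator. These mice are known for inflamed skin, from which LynDN would be the numerator, but no label settles it. If WT were the numerator, every sign would turn at once. The alarmin gene S100a9 was strongly positive in pairs 1, 2 and 3 (5.65, 5.35 and 5.61), and all pairs were read in this one direction. Across all rows, the 2 arrays of a dye swap correlated with Pearson r = 0.463 in pair 2 and 0.462 in pair 3, but only 0.0239 in pair 1, over genes that are not independent replicates. Sex-linked genes differed in pair 1: Eif2s3y and Kdm5d, both Y-linked, gave 3.50 and 1.24 there and -0.05 to 0.13 in the other pairs, and Xist gave -1.06 there against -0.09 and -0.14. The Y-linked gene Uty differed from both, with 0.07, 0.13 and -0.48 in pairs 1, 2 and 3. The part of this sex-linked difference in the results below was not tested. The number of arrays limits the precision.

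Most of the 24 macrophage genes, chosen with earlier results of these data known, had positive ratios in pairs 2 and 3. In pair 1 their ratios lay near 0. Other macrophage genes, given below, followed this less. The median log2 ratio over the 24 genes was -0.07 in pair 1, 0.56 in pair 2 and 0.90 in pair 3, against -0.002, -0.02 and -0.01 over all 22879 rows. A log2 ratio of at least 0.5, which is 1.41-fold, was reached by 0 of 24 genes in pair 1, 14 in pair 2 and 18 in pair 3. Over all rows that share was 0.721%, 2.89% and 2.91%. On all 4 arrays of pairs 2 and 3, 20 of the 24 were positive, against 11.2% of all rows. In pair 1, 6 of the 24 were negative on both arrays, against 21.8% of all rows. Pair 1 had the lowest value of the 3 pairs for 20 of 24 genes, against 33.8% of rows. In whole skin, a change in the number of cells of a type and a change in RNA per cell cannot be told apart.

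No gene of either group passed the test over all 3 pairs. In limma on the 3 pair values, adjusted over all rows at a threshold of 0.05, 0 of 37 genes passed, where 0.0175% of rows did. The smallest adjusted p among the 37 was 0.237, for the macrophage gene Lgals3. Among the 13 dendritic and MHC class II genes it was 0.278, for Cd86. At an unadjusted p under 0.05, 15 of 37 were positive and 1 was negative, against 5.92% and 6.41% of rows. The positive ones were 9 of 24 macrophage genes and 6 of 13 dendritic and MHC class II genes. With the 6 arrays in one fit and the mouse pair as a block, 0 of 37 passed, against 1.06% of rows. The smallest adjusted p of this limma fit was 0.0673, for Cd86 of the dendritic group. Among macrophage genes it was 0.0842, for Csf1.

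The fit without pair 1 gave 20 positive and 1 negative call among the 37, against 3.22% and 1.67% of rows. Of these, 18 positive calls and the negative one were macrophage genes. That fit rests on 2 pairs, and without pair 2 or without pair 3 the count was 0. The share of all rows called without pair 2 or pair 3 is not given here. These counts of 0 can therefore not be set against it. Calls among the 37 appeared only when the pair in which the macrophage genes lay near 0 was left out.

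**Figure D1:**
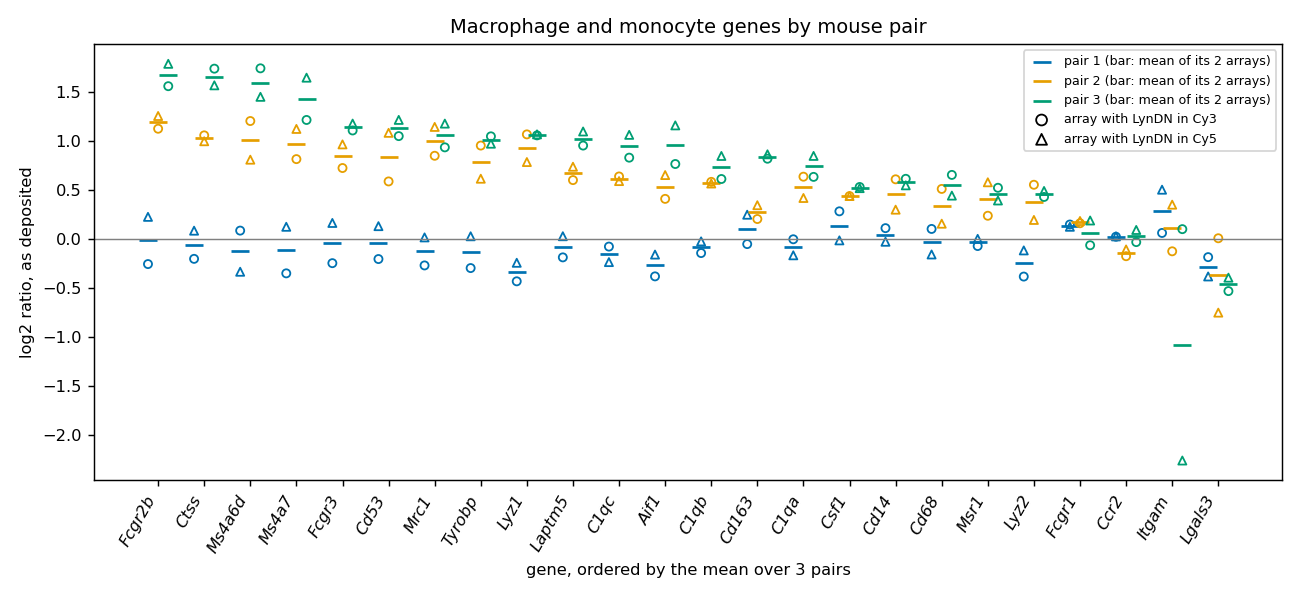
Log2 ratios as deposited (vertical axis) of the 24 macrophage and monocyte genes, ordered by their mean. Circles and triangles are single arrays with LynDN in Cy3 and in Cy5, and bars are the mean of the 2 arrays of a mouse pair. Pair 1 lies around 0, while most genes of pairs 2 and 3 lie above it, and 1 array of pair 3 puts Itgam at -2.26.

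The Fc receptor genes Fcgr2b and Fcgr3 had some of the largest ratios. Fcgr2b, the inhibitory receptor for IgG, gave -0.25 and 0.23 in pair 1, where here and below the array with LynDN in Cy3 is named first, then 1.13 and 1.26 in pair 2 and 1.56 and 1.79 in pair 3. The arrays of pairs 2 and 3 were all high, and did not overlap with those of pair 1, which lay on both sides of 0. Its mean was 0.95 ± 0.87 (SD, n = 3), or 1.93-fold, the largest of the 37 genes (limma adjusted p = 0.365). Without pair 1 it was 1.43 (limma adjusted p = 0.00897).

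Fcgr3, an activating IgG receptor, had -0.04, 0.85 and 1.14 in pairs 1, 2 and 3. The ITAM adaptor Tyrobp, through which many myeloid receptors signal, had -0.13, 0.79 and 1.01. Fcgr1, the high-affinity IgG receptor, differed from this, with 0.14, 0.18 and 0.07. The Fc receptor genes are related in sequence, so probes may detect more than one of them.

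The promoters of 3 genes that passed without pair 1, Fcgr2b, Cd53 and C1qb, are shown as the 150 bases before the start of each gene. Capitals mark 3 short motifs searched on both strands. GAGGAA is one form of the sites bound by the myeloid factor PU.1, and other forms were not searched. The remaining motifs are CCAAT and TGACG, the latter being the core of cyclic AMP response elements. No motifs overlap in these 3 genes. Sequences come from RefSeq on GRCm38.p6, where 27 of the 37 genes matched. Fcgr2b lies on the minus strand at chr1:170976072-170976221, Cd53 on the minus strand at chr3:106790150-106790299, and C1qb on the minus strand at chr4:136886201-136886350.
Fcgr2b: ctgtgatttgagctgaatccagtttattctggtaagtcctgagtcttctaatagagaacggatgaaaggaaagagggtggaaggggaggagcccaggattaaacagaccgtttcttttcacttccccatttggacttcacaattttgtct
Cd53: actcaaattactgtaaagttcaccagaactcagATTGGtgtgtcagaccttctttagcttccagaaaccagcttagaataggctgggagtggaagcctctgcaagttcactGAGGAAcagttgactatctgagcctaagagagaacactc
C1qb: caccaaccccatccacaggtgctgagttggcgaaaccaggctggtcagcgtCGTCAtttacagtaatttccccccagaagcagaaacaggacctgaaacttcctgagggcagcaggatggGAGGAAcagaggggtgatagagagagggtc

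GAGGAA begins 39 bases before the start of Cd53 and 30 bases before that of C1qb, and is not in the window of Fcgr2b. It was found in 8 of 19 macrophage genes and 1 of 8 dendritic and MHC class II genes with a window, against 14.5% of all 32851 promoters. Besides Cd53 and C1qb, Aif1, Fcgr1, Fcgr3, Itgam, Laptm5, Mrc1 and Cd207 hold it. These include Fcgr1, Itgam and Cd207, whose ratios did not follow the pattern of pairs 2 and 3. TGACG was in 2 of the 19 macrophage genes, C1qb and Cd68, against 13.3% of promoters. A match is a description of letters and not evidence of binding, and a missing match does not show that binding is absent.

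The 3 complement C1q chains, which macrophages make and which tag debris for uptake, had similar ratios. C1qa, C1qb and C1qc each had a negative value in pair 1, at -0.08, -0.08 and -0.15. They had 0.53, 0.58 and 0.62 in pair 2, and 0.74, 0.73 and 0.95 in pair 3. All 3 passed without pair 1 (limma adjusted p between 0.0157 and 0.0215) and not with it.

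Lysosomal genes were uneven. The cysteine protease gene Ctss, which cuts the invariant chain during antigen loading, had -0.06, 1.03 and 1.66 in pairs 1, 2 and 3. Its mean was 0.88 ± 0.87 (SD, n = 3). Cd68, a lysosomal membrane protein and standard macrophage marker, had 0.11 and -0.15 on the arrays of pair 1, whereas pair 2 gave 0.51 and 0.16, and pair 3 gave 0.66 and 0.45. Its lowest array of pair 2 lay close to the higher array of pair 1, and it did not pass without pair 1 (limma adjusted p = 0.0516).

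The lysozyme gene Lyz1 had -0.33, 0.93 and 1.06 in the 3 pairs, and its close paralog Lyz2, the main lysozyme of macrophages and neutrophils, had -0.25, 0.38 and 0.46. The 2 probes of Lyz2 disagreed. One had -0.52, 0.99 and 1.02, near the values of Lyz1, and the other had 0.02, -0.24 and -0.09. Single lysozyme values are therefore less certain than those of genes without such a paralog.

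Scavenger and pattern receptors followed pairs 2 and 3, apart from Lgals3. The mannose receptor Mrc1 had -0.12, 0.999 and 1.06, and the scavenger receptor Msr1 had -0.03, 0.41 and 0.46. Cd163, the haemoglobin scavenger receptor, had 0.10, 0.28 and 0.84 and did not pass without pair 1 (limma adjusted p = 0.124). Cd14, a co-receptor for lipopolysaccharide, had 0.11 and -0.02 on the arrays of pair 1, whereas pair 2 gave 0.61 and 0.30, and pair 3 gave 0.62 and 0.55, so that the arrays of pair 1 lay below the rest.

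Lgals3, a galectin that keratinocytes make as well, lay on the other side. It had -0.18 and -0.38 on the arrays of pair 1, whereas pair 2 gave 0.01 and -0.75, and pair 3 gave -0.53 and -0.39. Of the 6 arrays, 5 were negative, and the 2 arrays of pair 2 lay farther apart than its pairs did. Its mean of -0.37 ± 0.09 (SD, n = 3) had the smallest p of the 37 genes, and did not pass (limma adjusted p = 0.237). It was the 1 negative call without pair 1, at -0.41 (limma adjusted p = 0.0374).

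Csf1, the growth factor on which macrophages depend, had 0.29 and -0.01 on the arrays of pair 1, whereas pair 2 gave 0.44 and 0.44, and pair 3 gave 0.53 and 0.52. Both arrays of pair 1 lay below all others, and the mean was 0.37 ± 0.20 (SD, n = 3; limma adjusted p = 0.287). Ccr2, the chemokine receptor of incoming monocytes, lay near 0, with 0.03, -0.14 and 0.03.

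Other myeloid genes repeated the pattern, apart from Itgam. The Ms4a family genes Ms4a7 and Ms4a6d had 0.97 and 1.01 in pair 2 and 1.43 and 1.60 in pair 3, against -0.11 and -0.12 in pair 1. Both probes of Ms4a6d gave it, with means of 0.92 and 0.74. The tetraspanin gene Cd53, found on most leukocytes, had -0.03, 0.84 and 1.14, and the lysosomal gene Laptm5 had -0.08, 0.67 and 1.03. Aif1, which encodes the macrophage protein IBA1, had -0.27, 0.53 and 0.96. Itgam, the CD11b integrin shared with neutrophils, had 0.07 and 0.51 on the arrays of pair 1, whereas pair 2 gave -0.12 and 0.35, and pair 3 gave 0.10 and -2.26. A single array set its negative mean of -0.22 ± 0.74 (SD, n = 3), and without pair 3 the mean was 0.20.

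Among the MHC class II genes, Cd74, H2-Aa and H2-Ab1 had positive ratios that were near 0 in pair 1 and higher in pairs 2 and 3, while the regulator Ciita was slightly negative in all 3 pairs. The median over H2-Aa, H2-Ab1, H2-Eb1, H2-DMa and Cd74 was 0.11, 0.34 and 0.71 in pairs 1, 2 and 3. The pair values of all 5 were positive, against 15.5% of rows. For H2-Eb1, however, each pair value averages a negative and a positive array. These 5 leave out Ciita of the same pathway. With it, 5 of 6 genes were positive in all 3 pairs, and the medians were 0.09, 0.24 and 0.50. The 8 dendritic genes other than those 5, Ciita among them, had medians of 0.03, -0.09 and 0.01. Over the 13 genes together, the median was 0.15, with 0.06, 0.13 and 0.11 by pair. A ratio of at least 0.5 was reached in pairs 1, 2 and 3 by 0, 1 and 3 of the 13, all of them MHC class II genes. Over all rows that share was 0.721%, 2.89% and 2.91%.

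**Figure D2:**
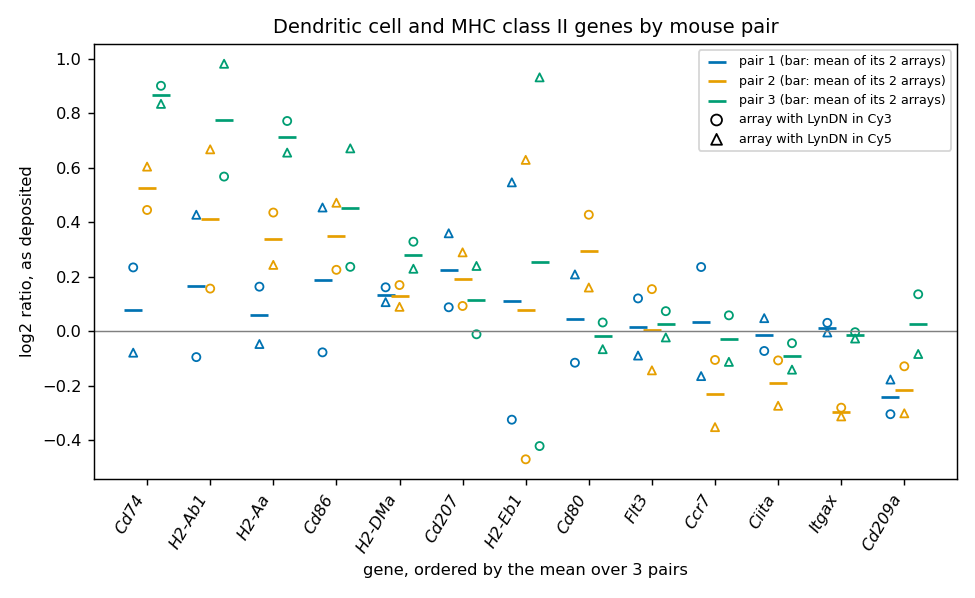
Log2 ratios as deposited (vertical axis) of the 13 dendritic cell and MHC class II genes, ordered by their mean, with arrays as circles (LynDN in Cy3) and triangles (LynDN in Cy5) and the mean of each mouse pair as a bar. Cd74, H2-Ab1 and H2-Aa reach 0.87, 0.78 and 0.71 in pair 3, whereas Itgax, Ciita, Ccr7 and Cd209a have means from -0.14 to -0.07.

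Cd74, the invariant chain, had 0.23 and -0.08 on the arrays of pair 1, whereas pair 2 gave 0.45 and 0.60, and pair 3 gave 0.90 and 0.83. The groups of arrays did not overlap between pairs. Its mean was 0.49 ± 0.40 (SD, n = 3; limma adjusted p = 0.344), and without pair 1 it was 0.70 (limma adjusted p = 0.0309). H2-Aa, an MHC class II alpha chain, had 0.06, 0.34 and 0.71 by pair. H2-DMa, which encodes a chain of the peptide-loading H2-DM, had a positive ratio on all 6 arrays, from 0.09 to 0.33. It was the only one of the 37 genes to do so. Since 3.72% of all rows were positive on all 6, 1 of 37 is no more than that share. The mean of H2-DMa was 0.18 ± 0.09 (SD, n = 3; limma adjusted p = 0.347).

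H2-Ab1, an MHC class II beta chain, had -0.09 and 0.43 on the arrays of pair 1, whereas pair 2 gave 0.16 and 0.67, and pair 3 gave 0.57 and 0.98. In each pair the array with LynDN in Cy5 was the higher one, by 0.41 to 0.52. The mean was 0.45 ± 0.31 (SD, n = 3; limma adjusted p = 0.307), and the gene just missed the threshold without pair 1 (limma adjusted p = 0.0502). H2-Eb1, a second beta chain, depended on the dye orientation altogether. With LynDN in Cy3 its arrays gave -0.32, -0.47 and -0.42 in pairs 1, 2 and 3, and with LynDN in Cy5 they gave 0.55, 0.63 and 0.93. The gap of 1.11 between orientations was exceeded by 0.415% of rows, and the small SD of its mean, 0.15 ± 0.09 (n = 3), does not show it. No direction can be read for H2-Eb1.

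Ciita, the master regulator that switches MHC class II genes on, had -0.07 and 0.05 on the arrays of pair 1, whereas pair 2 gave -0.11 and -0.27, and pair 3 gave -0.04 and -0.14. It lay at or below 0 on 5 of 6 arrays, with a mean of -0.10 ± 0.09 (SD, n = 3; limma adjusted p = 0.552), while Cd74 and the chain genes H2-Aa and H2-Ab1 were positive in the same pairs.

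The promoters of H2-Aa and H2-Eb1 are given because MHC class II promoters are known for a Y box, which holds CCAAT, downstream of an X box, part of which resembles a cyclic AMP response element. Capitals mark CCAAT and TGACG on either strand in the 150 bases before the start. H2-Aa lies on the minus strand at chr17:34287824-34287973, and H2-Eb1 on the plus strand at chr17:34305717-34305866.
H2-Aa: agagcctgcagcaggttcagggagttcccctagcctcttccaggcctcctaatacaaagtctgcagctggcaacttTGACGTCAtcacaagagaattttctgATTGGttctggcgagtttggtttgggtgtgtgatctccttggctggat
H2-Eb1: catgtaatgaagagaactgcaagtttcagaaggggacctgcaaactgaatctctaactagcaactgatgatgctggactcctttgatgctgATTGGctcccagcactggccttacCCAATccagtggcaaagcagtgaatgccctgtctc

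In H2-Aa, TGACG occurs on both strands, beginning 74 and 71 bases before the start and overlapping itself, and CCAAT on the opposite strand begins at 48. H2-Eb1 holds CCAAT on both strands, beginning at 59 and 35, and TGACG is not in its window. Of the 8 dendritic and MHC class II genes with a window, these 2 held CCAAT, a share like the 24.5% of all promoters. H2-Ab1 and Cd74 had no window and were not searched. Among macrophage genes, Cd163, Cd53, Cd68 and Mrc1 held CCAAT. The measured ratios of H2-Aa and H2-Eb1 cannot be compared with these letters, since those of H2-Eb1 turned with the dyes.

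Costimulatory molecules, the second signal that T cells need, were measured through Cd80 and Cd86. Cd86 had -0.08 and 0.45 on the arrays of pair 1, whereas pair 2 gave 0.23 and 0.47, and pair 3 gave 0.24 and 0.67. All pairs were positive, and the array with LynDN in Cy5 was higher in each. Its mean of 0.33 ± 0.13 (SD, n = 3) had the smallest p of the 13 genes (limma adjusted p = 0.278), with an adjusted p of 0.0673 under the block and 0.0422 in limma without pair 1. Cd80 had 0.05, 0.29 and -0.02.

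The 5 genes that mark dendritic cells themselves had means from -0.14 to 0.18. Cd207, the Langerhans cell lectin langerin, had 0.09 and 0.36 on the arrays of pair 1, whereas pair 2 gave 0.09 and 0.29, and pair 3 gave -0.01 and 0.24. Its pairs overlapped, and the mean was 0.18 ± 0.06 (SD, n = 3; limma adjusted p = 0.332). Flt3, the receptor for the growth factor of dendritic cells, had 0.02, 0.01 and 0.03 in the 3 pairs, where each value averages 1 positive and 1 negative array. Itgax, the CD11c integrin, had 0.01, -0.30 and -0.01. The homing receptor gene Ccr7 had 0.04, -0.23 and -0.03, and the lectin gene Cd209a had -0.24, -0.21 and 0.03. None of these 5 passed, also without pair 1.

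**Figure D3:**
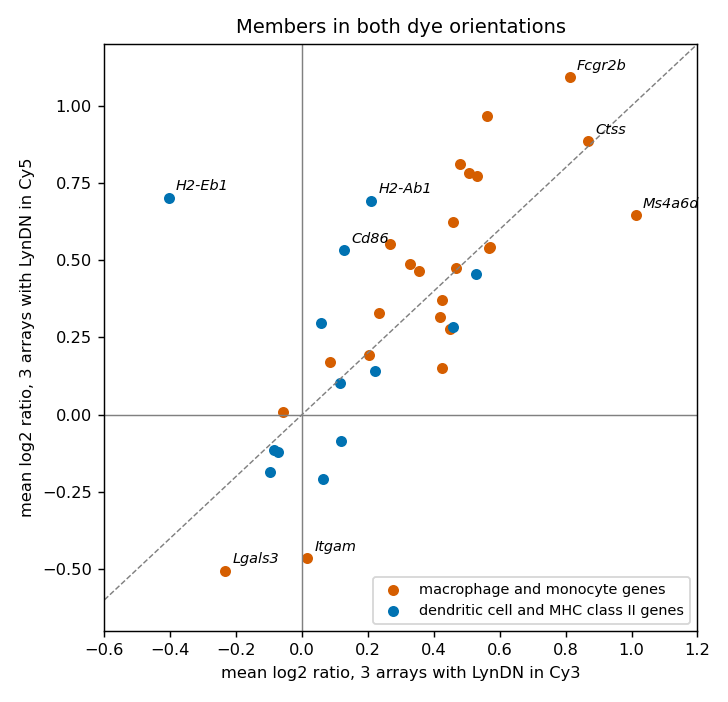
Mean log2 ratio of each of the 37 genes over the 3 arrays with LynDN in Cy3 (horizontal axis) and over the 3 arrays with LynDN in Cy5 (vertical axis). The dashed line marks equal values. H2-Eb1 lies farthest from it, at -0.40 and 0.70, and Fcgr2b and Ctss lie high in both orientations.

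The dye orientation left most of the other genes on their side. For 5 of the 37, the means of the 2 orientations had opposite signs, against 53.2% of all rows. The sign turned against that of the overall mean for H2-Eb1, Itgam and Ccr7 with LynDN in Cy3, and for Ccr2 and Flt3 with LynDN in Cy5. Over the 37 genes the arrays of a dye swap correlated with Pearson r = 0.714 in pair 2, 0.739 in pair 3 and -0.0402 in pair 1, where the genes share arrays and are not independent.

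Further genes of these cell types followed the pattern of pairs 2 and 3 less. Of 27 other macrophage genes measured, 0 passed over all 3 pairs. Without pair 1, 3 passed as positive and 0 as negative, against 3.22% and 1.67% of rows. On all 4 arrays of pairs 2 and 3, 9 of the 27 were positive, against 11.2% of rows and 20 of the 24 genes above. Their medians were -0.03, 0.11 and 0.10 by pair. Adgre1, the macrophage protein F4/80, had -0.15, 0.48 and 0.81, while the efferocytosis receptor Mertk had 0.08, -0.22 and -0.29 and Cx3cr1 had -0.05, -0.18 and 0.04. These 3, and Ptprc below, were named here after their values were seen, though Adgre1 and Mertk were listed as macrophage markers beforehand. The beta-glucan receptor Clec7a had 0.38, 1.93 and 1.68. Of 20 other dendritic cell genes, 0 passed over all pairs and 1 positive without pair 1, Cd24a, with 0.12, 0.86 and 0.61. With the pair as a block the regulator Id2 passed as negative (-0.32, limma adjusted p = 0.0496). Over 12 other MHC class II genes the medians were 0.06, 0.13 and 0.01 by pair, and 5 of the 12 were positive in all 3 pairs. Of these 12, Ctsl, a protease that keratinocytes also make, passed without pair 1, with 0.12, 0.72 and 0.84. The median of 18 MHC class I genes was -0.05, 0.17 and 0.27 by pair, and 3 passed without pair 1, among them H2-K1 and H2-D1.

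**Figure D4:**
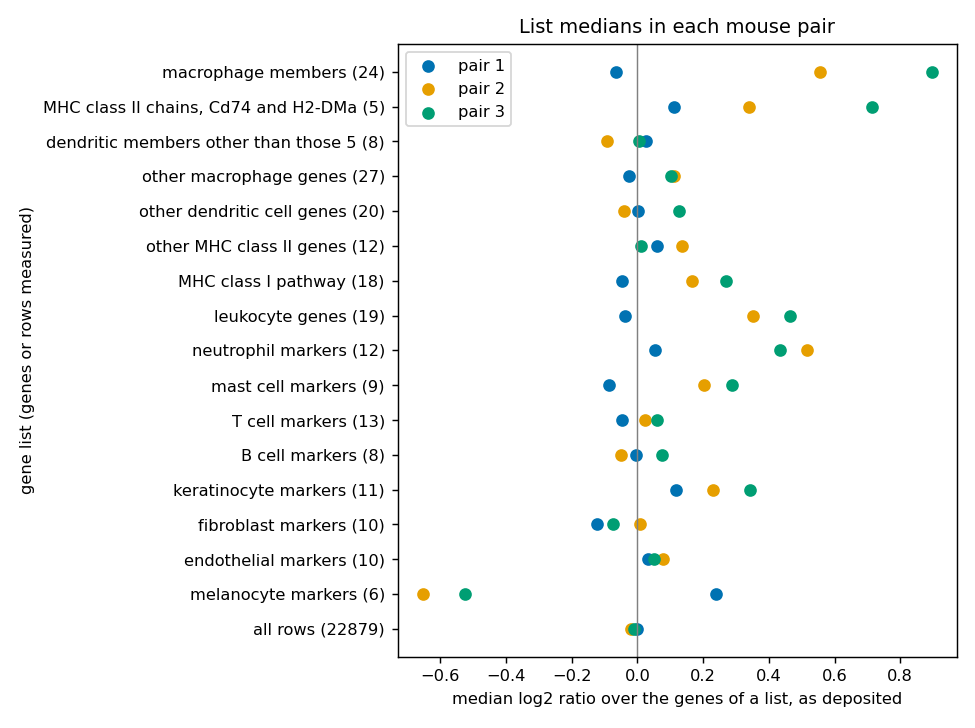
Median log2 ratio (horizontal axis) over the genes of each list (vertical axis, with the number measured) in pairs 1, 2 and 3. The 24 macrophage genes, the leukocyte genes and the neutrophil markers have medians of at least 0.35 in pairs 2 and 3. In pair 1 these lists lie within 0.07 of 0, and all rows lie at 0 in each pair within 0.02. The 27 other macrophage genes have medians of 0.11 and 0.10 in pairs 2 and 3. The list of MHC class II chains, Cd74 and H2-DMa has 0.11, 0.34 and 0.71 in pairs 1, 2 and 3.

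Markers of some other cells had positive medians in the same pairs. Leukocyte genes had medians of -0.04, 0.35 and 0.46 by pair over 19 genes, with 8 positive calls without pair 1. Neutrophil markers had 0.05, 0.52 and 0.43 over 12 genes, also with 8 such calls, and mast cell markers had -0.09, 0.20 and 0.29 over 9 genes, with 4. The leukocyte gene Ptprc, which encodes CD45, did not follow, with -0.22, -0.22 and 0.46. T cell markers (13 genes) had medians of -0.05, 0.02 and 0.06, and B cell markers (8 genes) had -0.01, -0.05 and 0.08. Without pair 1, the T cell gene Cd28 was called positive and the immunoglobulin gene Ighm negative, the latter with 0.15, -0.85 and -1.77 in pairs 1, 2 and 3. Keratinocyte markers had 0.12, 0.23 and 0.34 over 11 genes, and lay on both sides: 3 were called positive without pair 1 and 2 negative. The basal keratin Krt14 had 0.72, 1.67 and 1.62, while the lowest mean of the list was -1.77. Melanocyte markers had 0.24, -0.65 and -0.53 over 6 genes, and 4 of them were called negative without pair 1. Fibroblast and endothelial markers had medians between -0.12 and 0.08 in the 3 pairs. Fcgr2b, Fcgr3, Itgam, Tyrobp, Cd53, Laptm5 and Lyz2 are shared with neutrophils or other leukocytes, and the part of those cells in their ratios was not tested.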

How the data were processed

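The authors deposited a table of log2 ratios, 1 per probe and array. The log base and the numerator are not stated, and base 2 was taken from the range of values (-6.34 to 6.16). RNA was extracted with Qiagen and labelled with Ambion reagents, per the labels' protocols. Scanner, background correction and normalization were not given in the sources used here, and spot intensities were not used. Of 25344 probes, 21082 had 1 gene symbol in the platform annotation, 30 several and 4232 none. Symbols were averaged per array (39 probes for the 37 genes), and all other probes stayed single rows.

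Both arrays of a swap hold RNA of the same 2 mice, per the labels, and were averaged to 3 pair values. limma 3.58.1 (lmFit, eBayes; R 4.3.3) tested their mean against 0, and p-values were adjusted over 22879 rows by Benjamini-Hochberg, with 0.05 as the threshold. SDs over pairs do not show how far apart the arrays of a pair lie. An alternative took all 6 arrays with dye as a covariate and the pair as a random block (duplicateCorrelation, 0.151). The fit was tested on simulated data with independent noise and the same shift in all 3 pairs. It recovered 93.6% of 2-fold shifts, with 4.27% false calls. This recovery does not carry over to genes whose pairs differ, as many here did. Labels name the mice as separate animals, so the spread between pairs is both biological and technical. Promoters were searched with Python 3.11.15 and figures drawn with matplotlib 3.10.9.

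The genes and lists were chosen with earlier results of these data known. All measured members are named. Values on every array are given for the 4 smallest p in each group, for Cd68, Cd207, H2-Ab1 and Ciita, and for Itgam and H2-Eb1, whose arrays differ most. Genes of other lists are named for up to 3 of the smallest p. Rows from 21000 on are mostly (98.6%) stored with 3 significant digits or fewer, which touches 12 of the 37 genes.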

Additional observations from a re-analysis of the deposited data

How the results depend on the processing

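Over the alternatives, positive calls among the 37 genes ranged from 0 to 20 and negative ones from 0 to 1 when a mouse pair was left out, and both were 0 under all others, the replicate block included. The 20 positive calls and the 1 negative came from leaving out pair 1, and the cause was not tested. The median of macrophage genes, 0.41, was between 0.25 and 0.70 without a pair and 0.37 to 0.48 under the others. That of dendritic and MHC class II genes, 0.15, was between 0.13 and 0.17 without a pair and 0.12 to 0.16 under the others. Leaving out rows from 21000 on, chosen after seeing the data, gave 0.41 and 0.16. The signs of 32 of 37 genes held throughout. With LynDN in Cy3 alone, H2-Eb1 had -0.40, Itgam 0.016 and Ccr7 0.063, and with LynDN in Cy5 alone, Ccr2 had 0.0074 and Flt3 -0.085. Without the 1 array of another labelled date, H2-Eb1 had -0.034, where 1 orientation then weighs more. Leaving out a pair moved Itgam between -0.48 and 0.20, Ccr2 between -0.055 and 0.031 and Ccr7 between -0.13 and 0.0048. Without spot intensities, dim probes could not be told from bright ones.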
